A study of Mus musculus with 32 samples.

Results

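The 139 probes described here were detected on nearly all vehicle-treated IL-4 macrophage arrays and on few of the rosiglitazone (RSG)-treated ones. They were chosen by their signal-to-noise ratio (S/N), the background-corrected chemiluminescence of a spot divided by its error. A probe was a member if its S/N was at least 3 on 7 or more of the 8 vehicle-treated macrophage arrays and on 3 or fewer of the 8 RSG-treated macrophage arrays, counting both genotypes. In all, 139 of 33012 noncontrol probes met this rule. Because the macrophage arrays chose the members, the fall with RSG in macrophages is given below as a description without a test, and tests are kept to the iDC arrays, which the rule did not use. The genotypes are also compared in vehicle-treated macrophages, but on the same 8 arrays that the rule used, so those values are a description too.

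The series examined how PPARγ and IL-4 signaling meet in myeloid cells, with RNA from bone marrow cultures of 8 C57Bl/6 mice on 32 single-color mouse genome arrays. Controls were Pparg+/- LysCre mice (4 mice, 1 to 4), which carry 1 null Pparg allele and the lysozyme Cre transgene, and the deficient animals were Pparg fl/- LysCre mice (4 mice, 5 to 8), whose only other allele is flanked by loxP sites and recombined by Cre in cells of the myeloid lineage. Cells of each mouse were cultured for 9 days per the labels, with M-CSF to give macrophages or with GM-CSF to give immature dendritic cells (iDCs), both beside IL-4 and each cytokine at 20 ng/ml, and each culture received 1 µM RSG or its vehicle, a mixture of DMSO and ethanol. No group was wild-type, and all cultures had IL-4, so every comparison is between IL-4-treated cells that carry LysCre and at most 1 intact Pparg allele.

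PPARγ is a nuclear receptor that heterodimerizes with RXR and switches on genes of lipid uptake, storage and efflux when bound by fatty acid derivatives or by a thiazolidinedione such as RSG. IL-4 acts through STAT6 to induce the alternatively activated state of macrophages and also raises the receptor's own expression. Ligand-bound PPARγ is known both for activating targets and for dampening other genes.

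Few members carry a gene name. By identifier, 113 of the 139 members (81.3%) had a Celera gene identifier (mCG), 24 (17.3%) had a cDNA identifier (AK) and 2 (1.44%) a RefSeq identifier, beside 84.6%, 12.7% and 1.57% of all probes. A symbol could be attached to 317 of the 33012 probes and to 2 members, and other members are named by the identifier the files give. The probes' own sequences were not analysed here, so none is shown. Of 172 symbols in lists of PPARγ targets, alternative activation, inflammation, interferon response, antigen presentation, cell cycle, lipid synthesis and cell type markers, 3 had a named probe and 0 were members. The cell type labels could not be checked against markers for that reason, since 0 of 9 macrophage and 0 of 11 dendritic cell markers had a named probe, and the targeted gene, Pparg, was not analysed here for the same reason.

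The members were dim. Their mean signal on the vehicle-treated macrophage arrays had a median of 580 (lowest 245, highest 3091), against 5705 for all 12897 probes detected on at least 7 of those 8 arrays. When these 12897 probes were put in order of mean vehicle level (quantile-normalized log2 signal) and cut into 10 equal bins, 106 of the 1290 probes in the dimmest bin (8.22%) were members. The next 3 bins held 21, 9 and 3 members, and the 6 brightest bins held 0. The 139 members were thus spread over the 4 dimmest bins only, and in those bins the mean number of RSG arrays with detection, over all probes, was 5.96, 7.24, 7.69 and 7.88 of 8. The median change of level with RSG over all probes of the dimmest bin was -0.16 on the log2 scale, against 0.00 in the fourth bin.

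**Figure D1:**
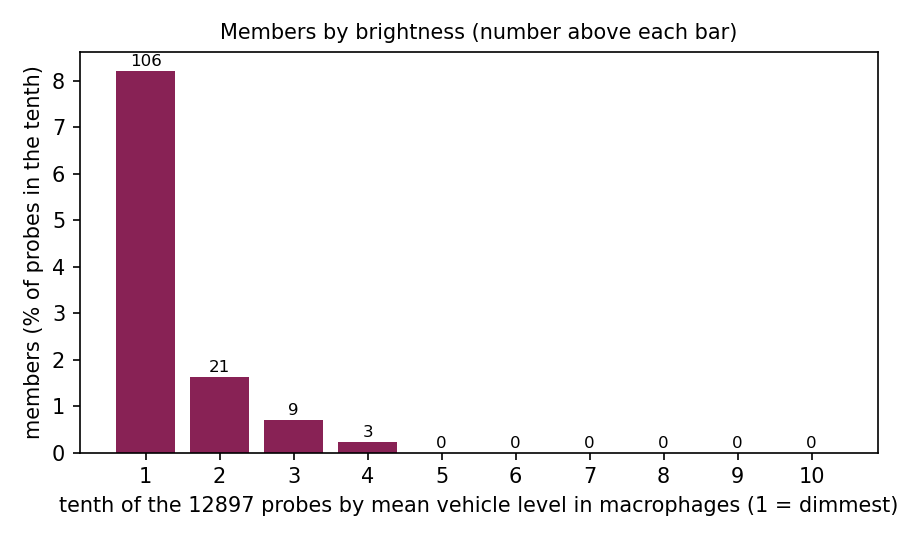
Share of probes that are members (y, percent) in 10 equal bins of the 12897 probes detected on at least 7 of 8 vehicle-treated macrophage arrays, ordered by mean vehicle level (x, 1 is dimmest), with the number of members above each bar. The dimmest bin holds 106 of the 139 members and the 6 brightest hold 0.

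Most members stood near the edge of the rule. Detection on 7 vehicle arrays was found for 104 members and on all 8 for 35. With RSG, 91 members were still detected on 3 arrays, 34 on 2, 12 on 1 and 2 on 0. Of the 12897 probes with at least 7 vehicle detections, 11748 also had at least 7 RSG detections and 1010 had 4 to 6. The members with 3 RSG detections had a median S/N of 2.47 on RSG arrays and a median level change of -0.53 on the log2 scale. The 183 probes just outside, with 4 RSG detections, had 3.16 and -0.36, and the 217 probes with 6 vehicle and at most 3 RSG detections had 2.21 and -0.45. The values thus run on across the limit of the rule without a gap. With the same rule at an S/N of at least 2, 137 probes passed, of which 22 were among the 139, and at an S/N of at least 5, 147 passed, of which 7 were. With detection read from the normalized level (at least 9 on the log2 scale) in place of S/N, 50 probes passed the rule, of which 13 were among the 139, and 30 passed the mirrored rule. The mirrored rule (at most 3 vehicle and at least 7 RSG arrays) was met by 4 probes in macrophages. In iDCs the rule was met by 37 probes and the mirrored rule by 68.

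On single arrays the loss of detection was seen in every mouse. In Pparg+/- LysCre macrophages, 122, 131, 128 and 126 of the 139 members were detected with vehicle and 26, 55, 28 and 24 with RSG (mice 1 to 4). The numbers in Pparg fl/- LysCre macrophages were 124, 126, 124 and 127 with vehicle and 73, 66, 48 and 33 with RSG (mice 5 to 8). The vehicle and RSG arrays did not overlap in either genotype, and the rule counted both genotypes jointly. The mean with RSG was 33.3 ± 14.6 members (SD, n = 4) in Pparg+/- LysCre and 55 ± 18.1 (SD, n = 4) in Pparg fl/- LysCre macrophages, and the ranges of the 2 genotypes overlap, since mouse 2 had 55 detected members and mice 7 and 8 had 48 and 33. Counted over members and arrays, 23.9% of 556 values were detected with RSG in Pparg+/- LysCre and 39.6% in Pparg fl/- LysCre macrophages, and 91.2% and 90.1% with vehicle.

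The arrays as a whole also had fewer detected probes with RSG in macrophages. In Pparg+/- LysCre macrophages 15144 to 15918 of the 33012 probes were detected with vehicle and 13830 to 15250 with RSG. These ranges in Pparg fl/- LysCre macrophages were 15293 to 16009 and 14197 to 15227. Within each mouse, 1745 to 2780 probes lost detection with RSG in macrophages and 946 to 1627 gained it. The array with the most members detected among the 4 RSG arrays of Pparg+/- LysCre macrophages (mouse 2, 55 members) was also the one with the most probes detected in all (15250). This did not hold in Pparg fl/- LysCre macrophages. There mouse 5 had the most members (73, with 15126 probes) and mouse 6 the most probes (15227, with 66 members). The part of the arrays' overall detection in the members' loss was not tested. In bulk RNA, fewer cells that express a gene and less RNA per cell cannot be told apart.

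**Figure D2:**
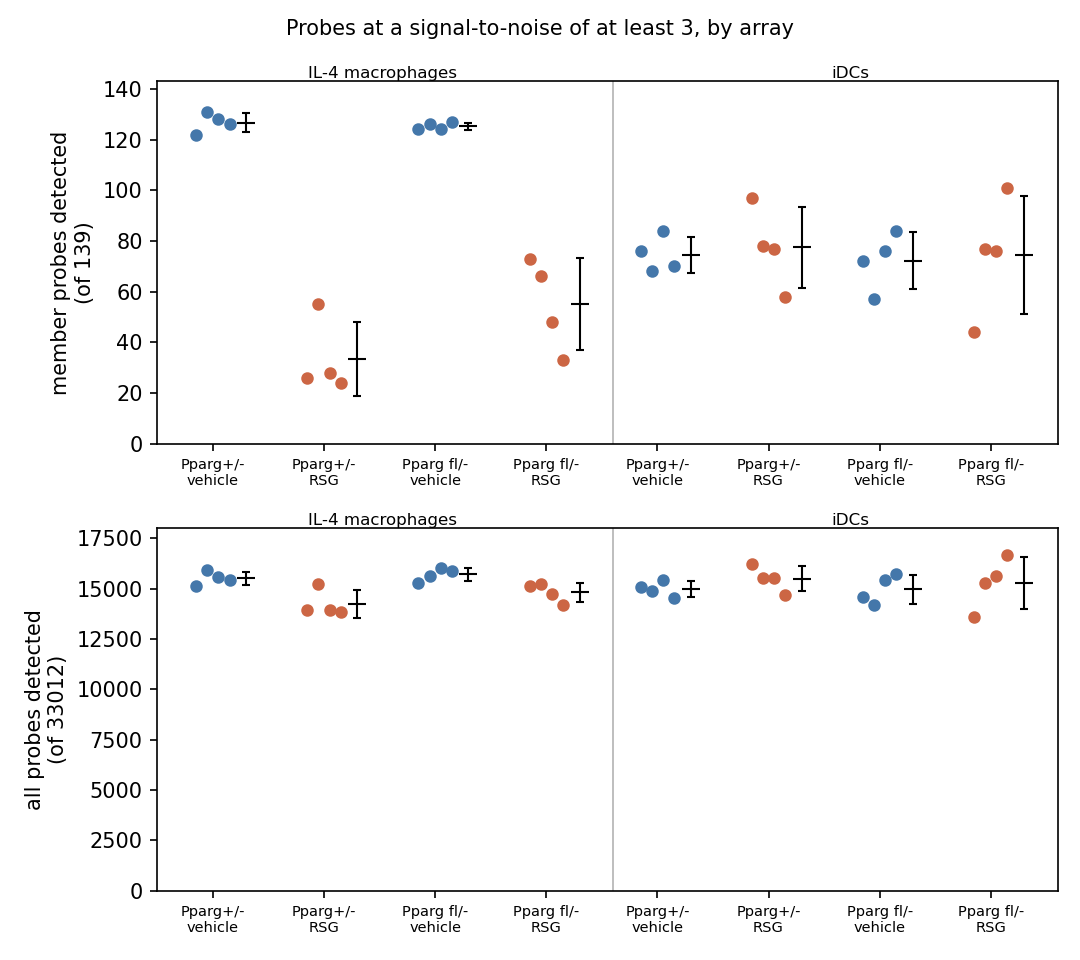
Number of the 139 members (top) and of all 33012 probes (bottom) with S/N of at least 3 on each array, by cell type, genotype and treatment, 1 point per mouse, with the group mean and SD (n = 4) beside the points. RSG-treated macrophage arrays lie at 24 to 73 members against 122 to 131 with vehicle, and iDC arrays at 44 to 101 with both treatments mixed.

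Both the signal and its error moved. S/N can fall because the spot is weaker or because its error is larger, so the change was split over the 934 of 1112 pairs of a member and a mouse with S/N above 1 on both macrophage arrays. There the median log2 change of S/N was -0.93, that of the raw signal -0.44 and that of the error 0.48, and the error was higher with RSG in 70.6% of pairs. Pairs whose RSG signal was too low to be measured do not enter these medians, so the share of signal and error in the whole loss is not given. The split differed among mice, with a median signal change from -1.02 in mouse 6 to 0.17 in mouse 5 and a median error change from -0.38 in mouse 6 to 1.03 in mouse 1, while the S/N change was negative in all 8 mice, as the rule favours. These are unscaled values, and over all probes measured on both arrays the same arrays moved alike, with a signal change of -0.74 in mouse 6 and 0.50 in mouse 5 and an error change of -0.70 in mouse 6 and 0.45 in mouse 1. Over all 16620 probes that entered the tests, the same medians were -0.22, -0.08 and 0.19 and the share was 60.2%. In iDCs the members' median S/N change was 0.06 over 812 pairs, with -0.12 for the signal and -0.16 for the error. A spot with S/N of 1 or less has no measured signal: in 99.9% of such values the file lists the error in its place. With RSG, 16 to 38 members had such values on the Pparg+/- LysCre macrophage arrays and 9 to 27 on the Pparg fl/- LysCre arrays, against 1 to 4 and 1 to 3 with vehicle, so a level there is a ceiling rather than a reading.

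The levels of the members were lower with RSG in macrophages of both genotypes. The median over the 139 members of RSG minus vehicle was -0.77 on the log2 scale in Pparg+/- LysCre and -0.50 in Pparg fl/- LysCre macrophages, beside -0.03 and -0.01 over the 16620 probes tested. Under median scaling the members' medians were -0.80 and -0.53 while those of all probes moved to -0.18 and -0.13, so relative to all probes the members were lower by less, -0.62 and -0.40 against -0.74 and -0.48 with quantile normalization. By mouse, the members' median was -0.75, -0.66, -0.63 and -0.82 in mice 1 to 4 and -0.30, -0.41, -0.39 and -0.63 in mice 5 to 8. All 8 mice had a negative median, and mouse 8 lay beside mouse 3. The level was lower in 124 of 139 members in Pparg+/- LysCre macrophages (89.2%, beside 55.6% of all probes tested). It was lower in 117 in Pparg fl/- LysCre macrophages (84.2%, beside 53.7%), and 103 members were lower in both. A level lower by at least 2-fold was found for 47 members in Pparg+/- LysCre, 18 in Pparg fl/- LysCre and 13 in both, and the share over all probes was not computed. The rule chose the members on these same arrays, so the counts are a description. The scan days each held 2 mice of 1 genotype with both treatments, so the lower level within each mouse is also one within each scan day, while scan day and genotype cannot be told apart.

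**Figure D3:**
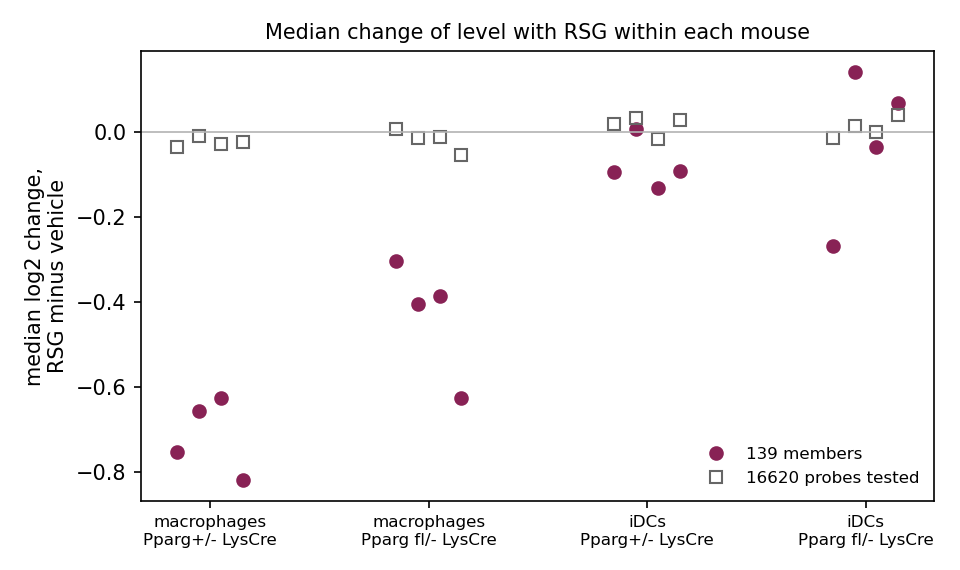
Median log2 change of level, RSG minus vehicle, within each mouse for the 139 members (filled) and for the 16620 probes tested (open squares), by cell type and genotype. In macrophages the members' medians run from -0.82 to -0.30 and in iDCs from -0.27 to 0.14, while those of all probes stay between -0.06 and 0.04.

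Some members were lost in 1 genotype more than in the other. With RSG, 39 members were detected on 0 of the 4 Pparg+/- LysCre macrophage arrays, 13 on 0 of the 4 Pparg fl/- LysCre arrays and 2 on 0 of both. Detection was on fewer RSG arrays in Pparg+/- LysCre for 83 members, on fewer in Pparg fl/- LysCre for 32 and on equal numbers for 24. In all, 20 members were on 0 arrays in Pparg+/- LysCre and 3 in Pparg fl/- LysCre macrophages, and 4 were the other way round. This split uses the same arrays as the rule and was not tested.

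Where a probe was undetected on all 4 RSG arrays of a genotype, its fall was estimated as a capped fold. This sets the vehicle mean against the higher of the probe's own RSG level and the dimmest detected signal on each array. In most cases the probe's own level was the higher, so the fold is that of the plain difference between mean levels. Levels of undetected probes are uncertain, so the fold is an estimate and not a bound. Of the 39 members undetected in Pparg+/- LysCre macrophages, 37 had a fold above 1 and 18 reached at least 2-fold, and the median over all 39 was 1.88. Of the 13 in Pparg fl/- LysCre macrophages, all 13 had a fold above 1, with a median of 1.65, and 4 reached at least 2-fold. The largest folds were 4.29 for AK052773.1 in Pparg+/- LysCre and 3.70 for mCG9587.2 in Pparg fl/- LysCre macrophages.

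By the difference of the mean listed levels in macrophages over both genotypes, mCG9587.2, mCG14612.2 and mCG1974.2 were taken to show single arrays. Each had a genotype with 0 of 4 RSG arrays detected, so this choice is no ranking of their falls. The level of mCG9587.2 in Pparg+/- LysCre macrophages was 10.41, 10.66, 9.24 and 10.02 with vehicle and 8.58, 7.17, 7.93 and 7.81 with RSG (log2, mice 1 to 4). Cells of Pparg fl/- LysCre mice gave 8.55, 10.90, 9.72 and 7.62 with vehicle and 7.71, 7.83, 6.61 and 7.08 with RSG (mice 5 to 8). The groups did not overlap in Pparg+/- LysCre cells, and in Pparg fl/- LysCre cells the vehicle array of mouse 8 lay below 2 of the RSG arrays. For mCG14612.2 the level in Pparg+/- LysCre macrophages was 9.20, 8.57, 8.63 and 8.92 with vehicle and 6.27, 6.99, 7.22 and 7.06 with RSG. The Pparg fl/- LysCre arrays gave 8.72, 8.93, 8.48 and 8.87 with vehicle and 7.99, 6.63, 6.02 and 7.65 with RSG. All RSG arrays of mCG14612.2 lay below all vehicle arrays, and it was detected with RSG on 1 array, that of mouse 5. The probe mCG1974.2 was detected on 3 of 4 RSG arrays in Pparg+/- LysCre and on 0 of 4 in Pparg fl/- LysCre macrophages, with mean levels of 9.61 ± 1.29 (SD, n = 4) with vehicle and 7.67 ± 0.59 (SD, n = 4) with RSG in the former. These were 8.23 ± 1.35 (SD, n = 4) and 6.59 ± 0.42 (SD, n = 4) in the latter. The normalized levels of mCG1974.2 did not overlap in either genotype, but the gap was narrow. The lowest vehicle and highest RSG levels were 8.37 and 8.35 in Pparg+/- LysCre and 6.975 and 6.974 in Pparg fl/- LysCre macrophages. Its raw signals overlapped, with a lowest vehicle signal of 256 against a highest RSG signal of 275 in Pparg+/- LysCre, and 113 against 131 in Pparg fl/- LysCre macrophages.

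The 2 members with the highest vehicle level were mCG17245.2 and mCG10752.2. For mCG17245.2 the S/N on the Pparg+/- LysCre macrophage arrays was 6.05, 7.82, 3.71 and 6.51 with vehicle and 2.5, 6.8, 0.98 and 1.29 with RSG, while the mean level was 11.71 ± 0.34 (SD, n = 4) and 11.09 ± 0.36 (SD, n = 4). For mCG10752.2 in Pparg fl/- LysCre macrophages the S/N was 3.59, 4.16, 5.78 and 3.27 with vehicle and 2.61, 6.55, 2.96 and 1.52 with RSG, but the mean level was 11.11 ± 0.32 (SD, n = 4) and 11.36 ± 0.49 (SD, n = 4). In these cells detection was lost on 3 of 4 RSG arrays while the mean level was not lower. The same probe was detected on 2 of 4 RSG arrays of Pparg+/- LysCre macrophages, and its mean level was 11.34 ± 0.51 (SD, n = 4) with vehicle and 10.73 ± 0.32 (SD, n = 4) with RSG.

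The 2 members with a symbol were Grap and Krtap9-3. Grap encodes an adaptor protein with SH2 and SH3 domains that links activated receptors to Ras signaling, and lies at chr11:61653321-61672777 (RefSeq, GRCm38.p6). Its S/N in Pparg+/- LysCre macrophages was 3.04, 8.99, 7.38 and 11.1 with vehicle and 4.27, 1.77, 0.85 and 2.39 with RSG. On the Pparg fl/- LysCre arrays it was 13.9, 6.29, 6.26 and -1.55 with vehicle and 5.13, 2.89, -1.62 and 2.58 with RSG. The treatments overlap, since mouse 1 had a higher S/N with RSG than with vehicle, and the mean level in Pparg+/- LysCre cells was 10.84 ± 0.30 (SD, n = 4) with vehicle and 10.26 ± 0.46 (SD, n = 4) with RSG. Krtap9-3 encodes a keratin-associated protein of the hair shaft, from a family of similar genes, and lies at chr11:99597348-99598106 (RefSeq, GRCm38.p6), and whether its probe tells the family members apart was not tested. Its level in Pparg+/- LysCre macrophages was 8.19, 9.44, 8.78 and 9.15 with vehicle and 9.82, 8.94, 8.84 and 8.57 with RSG. For Pparg fl/- LysCre macrophages it was 9.17, 9.19, 8.85 and 8.97 with vehicle and 8.40, 7.45, 9.30 and 8.22 with RSG. It was not lower with RSG in Pparg+/- LysCre cells as a mean, with mouse 1 higher by the most. Neither gene was called in any comparison tested. Among the probes just outside the rule, the 1 with a symbol was Ndn, which encodes necdin, an imprinted growth suppressor of neurons. It was detected on 6 vehicle and 1 RSG macrophage arrays, with a mean level of 8.50 ± 0.78 (SD, n = 4) with vehicle and 8.00 ± 0.61 (SD, n = 4) with RSG in Pparg+/- LysCre cells.

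In iDCs the members were detected on about as many arrays with RSG as with vehicle. In Pparg+/- LysCre iDCs, 76, 68, 84 and 70 members were detected with vehicle and 97, 78, 77 and 58 with RSG. The numbers in Pparg fl/- LysCre iDCs were 72, 57, 76 and 84 with vehicle and 44, 77, 76 and 101 with RSG. The group means were 74.5 ± 7.19 and 77.5 ± 15.9 in Pparg+/- LysCre and 72.3 ± 11.3 and 74.5 ± 23.4 in Pparg fl/- LysCre iDCs (SD, n = 4), so the treatments overlap in both genotypes. The lowest and the highest RSG array, those of mice 5 and 8, were also the lowest (13595) and the highest (16683) of all iDC arrays in the number of all probes detected.

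By member, 37 of 139 (26.6%) were detected on at least 7 of the 8 vehicle-treated iDC arrays, 44 on 4 to 6, 43 on 1 to 3 and 15 on 0. Of the 12897 probes that were detected in vehicle-treated macrophages, 90.4% reached at least 7 of 8 vehicle-treated iDC arrays, and of the dimmest bin, where 106 members lie, 51.9%. Of the members, 9 were detected on all 16 iDC arrays and 7 on 0. Detection was on more RSG than vehicle iDC arrays for 58 members (41.7%), on fewer for 47 (33.8%) and on equal numbers for 34 (24.5%). Over the 12897 probes these shares were 8.47%, 6.44% and 85.1%. The rule itself was met in iDCs by 2 of the 139 members (1.44%) and the mirrored rule by 1 (0.719%), beside 0.0853% and 0.202% of the 12897 probes. Most of the 12897 probes were far brighter than the members, with a median macrophage vehicle signal of 5705 against 580. The shares of change with RSG were not computed for the dimmest bin, so nothing is read from their distance to those of all probes.

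**Figure D4:**
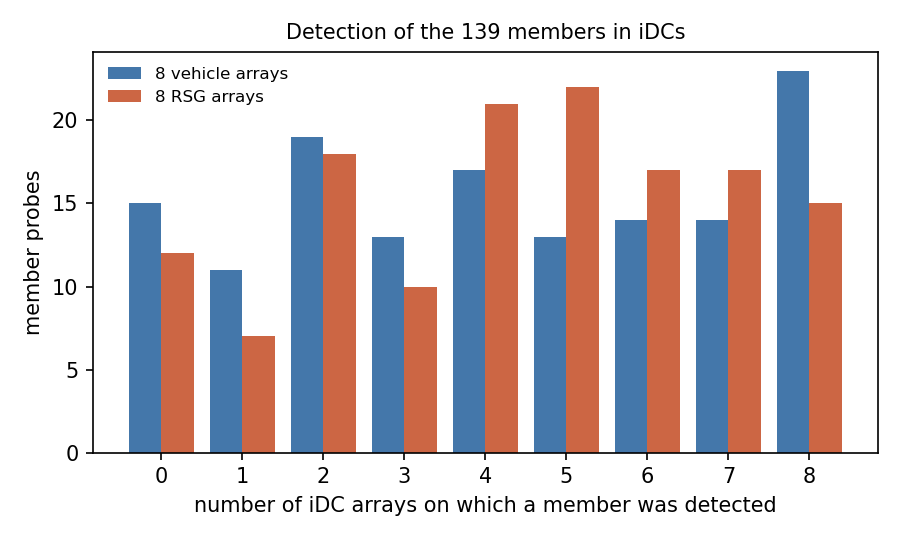
Number of members (y) detected on 0 to 8 of the vehicle-treated (blue) and of the RSG-treated (orange) iDC arrays (x), both genotypes together. Of the 139 members, 15 were on 0 and 23 on all 8 vehicle arrays, and 12 and 15 with RSG.

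Levels in iDCs were tested with limma across 16620 probes, with a call where the Benjamini-Hochberg adjusted p was below 0.05 and the change reached 1.5-fold. All 139 members were among the probes tested, as their vehicle detection in macrophages ensures, and 96 of them (69.1%) were detected on at least 3 of 4 arrays of any iDC group, so the level of the rest in iDCs is near or below the limit of detection. For the RSG effect averaged over the genotypes, 8 members were called (5.76%), beside 4.84% of all probes tested. Of these, 4 were higher (2.41% of all probes) and 4 lower (2.44%), the higher ones including mCG14449.2, which was detected on at most 2 of 4 arrays in every iDC group and entered the test only through macrophages, and the median change of the members was -0.01 on the log2 scale against 0.02 over all probes. The members' share is close to the background in both directions. It also counts members that entered the test only through macrophages, so no conclusion is drawn from it. Of the 8 called, 7 were detected on at least 3 of 4 arrays of an iDC group. Leaving out any 1 of the 8 mice lowered the count to 3 (mouse 2 or 3), 4 (mouse 8) or 5 (mouse 1, 4, 5, 6 or 7). The share over all probes was also lower in these fits, 3.68% to 4.75%.

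In Pparg+/- LysCre iDCs, 9 members were called (6.47%, beside 6.01% of all probes), 4 higher (3.09% of all) and 5 lower (2.92%). Of these 9, the exception to detection on at least 3 of 4 arrays of a group compared was again mCG14449.2, among the higher ones. The count was 4 without mouse 1 (2.88%, beside 4.21% of all probes), 3 without mouse 2 or 4 (2.16%, beside 3.54% and 3.97%) and 14 without mouse 5 (10.1%, beside 7.62%), so the count over all probes moved the same way. In Pparg fl/- LysCre iDCs, 1 member was called, mCG9587.2, lower with RSG (0.719%, beside 0.692% of all probes called and 0.325% called lower). That call was lost without mouse 2, 5, 6, 7 or 8, and with the mouse as a replicate block it had an adjusted p of 0.0754 while the block called 1 other member, higher. For the difference in RSG effect between the genotypes, limma called 0 members (0.439% of all probes), with 14 of 139 at an unadjusted p below 0.05 (10.1%, beside 10.6% of all). The 18 alternatives also called 0 members, with up to 1.62% of all probes (the mouse as a replicate block).

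Among the members called in iDCs was mCG9587.2, whose macrophage arrays are described above. In Pparg+/- LysCre iDCs its level was 9.92, 10.08, 10.83 and 10.45 with vehicle and 9.54, 7.89, 7.53 and 7.26 with RSG. On arrays of Pparg fl/- LysCre iDCs it was 12.07, 10.87, 11.39 and 12.48 with vehicle and 8.70, 9.32, 9.80 and 9.16 with RSG. All 8 mice were lower with RSG and no RSG array reached a vehicle array. The change was -2.36 ± 0.33 (SE) over both genotypes (limma, adjusted p = 0.000433), -2.26 ± 0.46 in Pparg+/- LysCre (adjusted p = 0.00723) and -2.46 ± 0.46 in Pparg fl/- LysCre iDCs (adjusted p = 0.0245). On 3 of the 4 RSG arrays of Pparg+/- LysCre iDCs it had an S/N below 1, so their levels are ceilings and neither the size of the change there nor that over both genotypes is an exact reading. Over both genotypes it was called under all 18 alternatives. In Pparg+/- LysCre iDCs the call was lost without mouse 3 (adjusted p = 0.0792) or mouse 4 (0.0617) and in the methods' t-test (0.0555). The call in Pparg fl/- LysCre iDCs was lost under 9 of 20 alternatives, with the mouse as a replicate block (adjusted p = 0.0754), in a fit to only the arrays compared (0.0961), in the methods' t-test (0.258), with no detection filter (0.0631) and without mouse 2, 5, 6, 7 or 8 (0.0609 to 0.157). The difference between the genotypes was not called (limma, adjusted p = 0.955), and its size is not given because it rests on those ceilings.

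The probe mCG3916.1 rose in iDCs. Its level in Pparg+/- LysCre iDCs was 8.90, 8.90, 8.79 and 9.37 with vehicle and 10.23, 9.87, 10.10 and 9.90 with RSG. The Pparg fl/- LysCre iDCs gave 8.41, 8.94, 9.16 and 8.63 with vehicle and 9.81, 9.14, 9.65 and 9.54 with RSG. It was higher with RSG in 8 of 8 mice, by 0.89 ± 0.13 on the log2 scale (SE, limma, adjusted p = 0.000722). Over both genotypes it was called under all alternatives but the 2-fold threshold. By genotype, limma called it in Pparg+/- LysCre iDCs (1.04 ± 0.19, adjusted p = 0.00318) but not in Pparg fl/- LysCre iDCs (0.75 ± 0.19, adjusted p = 0.0980). The difference between the genotypes was not called (limma, adjusted p = 0.781). In macrophages its level was 9.52, 9.00, 9.71 and 8.55 with vehicle and 8.40, 8.36, 9.04 and 8.58 with RSG in Pparg+/- LysCre cells, lower in 3 of 4 mice. Macrophages of Pparg fl/- LysCre mice gave 9.58, 8.55, 9.08 and 8.94 with vehicle and 8.49, 8.40, 8.13 and 8.04 with RSG, lower in 4 of 4. The difference between cell types was not tested, because the macrophage arrays chose the probe.

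The probe AK009268.1 rose in Pparg+/- LysCre iDCs. Its level was 8.97, 9.07, 10.05 and 8.42 with vehicle and 12.00, 11.75, 11.73 and 10.32 with RSG (limma, adjusted p = 0.0118). The RSG arrays were all detected, but 3 of the 4 vehicle arrays had an S/N of 1.39 to 1.82, so the size of the rise is not given. All 4 RSG arrays lay above the vehicle arrays, and the call was lost without mouse 1 (adjusted p = 0.0860) or mouse 2 (0.0865). In Pparg fl/- LysCre iDCs the S/N of AK009268.1 was -0.48, -0.94, -1.25 and -1.24 with vehicle and 3.39, -0.48, 0.49 and -1.32 with RSG, so 7 of the 8 arrays had no measured signal. Its difference in RSG effect between the genotypes was not called (limma, adjusted p = 0.302), and its size is not given for that reason. For mCG14449.2 the level in Pparg+/- LysCre iDCs was 10.21, 9.09, 9.32 and 10.29 with vehicle and 11.12, 11.44, 11.53 and 11.14 with RSG, which limma called (adjusted p = 0.0108). Only 1 of these 8 arrays reached an S/N of 3, and the probe entered the test through its detection in vehicle-treated macrophages, where the rule made it high, so no rise is read from these levels. Its call was lost without mouse 2 (adjusted p = 0.0944) or mouse 3 (0.0964).

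Among members that fell in Pparg+/- LysCre iDCs, AK052773.1 had levels of 8.43, 8.89, 8.49 and 9.70 with vehicle and 7.62, 7.92, 7.14 and 7.34 with RSG. The estimated 2.59-fold fall was called (limma, adjusted p = 0.0361). For AK052773.1 the size of the fall is uncertain, since 0 of 4 RSG arrays were detected, with an S/N of 1.4 to 2.31. Its call was lost without any 1 of mice 1, 2, 3, 4 or 8 (adjusted p = 0.0546 to 0.201). It was also lost with no detection filter (0.0834), in a fit to all 32 arrays (0.0701) and in the methods' t-test (0.0571). For mCG15979.1 the level was 11.82, 11.30, 10.98 and 11.56 with vehicle and 10.63, 10.31, 10.40 and 10.18 with RSG, a change of -1.04 ± 0.23 (adjusted p = 0.0123), with all 8 arrays detected, and the call was lost without mouse 1, 2 or 4 (adjusted p = 0.0509 to 0.0945). In both, as in mCG9587.2, the direction in iDCs was the one that chose the probe in macrophages.

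Genotype without ligand was compared in vehicle-treated cells. In macrophages the rule asked for detection on at least 7 of these same 8 arrays, so the counts are printed and nothing is read from them. There limma called 0 members (0.156% of all probes), with 10 of 139 at an unadjusted p below 0.05 (7.19%, beside 23.4% of all probes), and the methods' t-test also called 0 after adjustment. The members' median difference, Pparg fl/- LysCre minus Pparg+/- LysCre, was -0.000237 on the log2 scale, beside -0.00116 over all probes. Leaving out mouse 5 raised the count to 8 members, 4 higher and 4 lower, and raised that over all probes from 26 to 2488. For mCG145361 the levels were 10.05, 10.15, 9.28 and 10.25 in Pparg+/- LysCre and 10.65, 10.74, 10.82 and 10.72 in Pparg fl/- LysCre macrophages. These do not overlap, but the difference was not called (limma, adjusted p = 0.0964). The share of all probes without overlap is not given, so no genotype effect is read from this probe in macrophages.

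In vehicle-treated iDCs, 5 members were called for genotype (3.6%, beside 2.83% of all probes), 2 higher in Pparg fl/- LysCre (1.28% of all) and 3 lower (1.55%). The count was 2 without mouse 1, 1 without mouse 2, 3 or 8, 0 without mouse 4, 6 or 7, and 14 without mouse 5. Over all probes the share was 0.217% to 0.457% without a mouse other than mouse 5 and 12.2% without mouse 5, above the members' 10.1%. The methods' t-test called 0 members and 28 of all probes (0.168%). The called member with the largest difference was mCG145361, whose iDC levels were 16.74, 16.22, 15.31 and 15.03 in Pparg+/- LysCre and 18.06, 18.47, 18.19 and 17.37 in Pparg fl/- LysCre cells. All 4 Pparg fl/- LysCre arrays lay above the controls, by 2.19 ± 0.36 on the log2 scale (SE, limma, adjusted p = 0.0128). The call was lost without mouse 4, 6 or 7 (adjusted p = 0.0531 to 0.0582). A fit to only the arrays compared (0.0571) and the methods' t-test (0.0961) lost it too. This probe was dim in macrophages and bright in iDCs, with an S/N of 3.63, 10.5, 2.51 and 5.78 on vehicle-treated Pparg+/- LysCre macrophage arrays and 61.3, 65, 94.7 and 49.9 on the iDC arrays of the same mice. With RSG its iDC level was 15.45, 15.47, 14.92 and 15.16 in Pparg+/- LysCre and 16.57, 17.66, 17.50 and 17.36 in Pparg fl/- LysCre cells, still separate by genotype, and the RSG effect over both genotypes was -0.67 ± 0.25 (limma, adjusted p = 0.133).

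**Figure D5:**
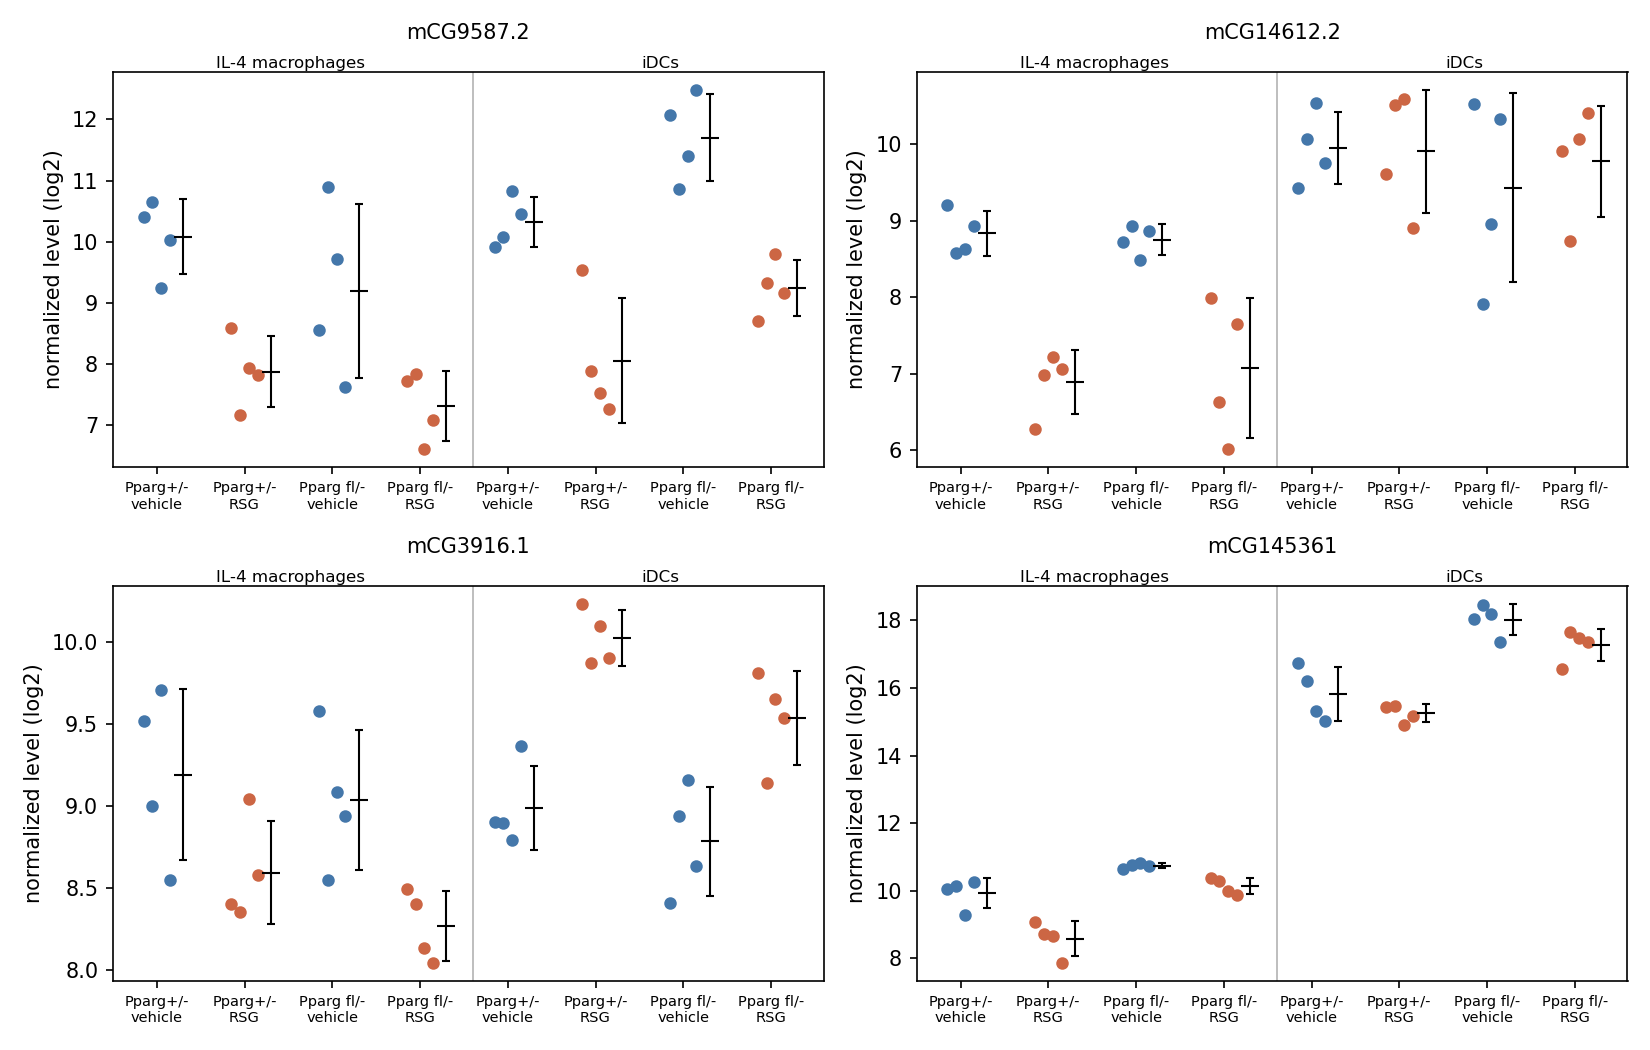
Normalized level (y, log2) of mCG9587.2, mCG14612.2, mCG3916.1 and mCG145361 on each of the 32 arrays, by cell type, genotype and treatment, 1 point per mouse, with the group mean and SD (n = 4) beside the points. With RSG in iDCs mCG9587.2 lies lower and mCG3916.1 higher, while mCG145361 lies at 15.03 or more on all vehicle-treated iDC arrays and at 10.82 or less in macrophages.

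Of the members lower in Pparg fl/- LysCre iDCs, mCG117653.1 had levels of 13.42, 13.40, 12.97 and 13.32 in Pparg+/- LysCre and 12.46, 11.40, 11.75 and 11.70 in Pparg fl/- LysCre cells, a difference of -1.45 ± 0.36 (SE, limma, adjusted p = 0.0461). For mCG15979.1 the difference was -0.98 ± 0.23 (adjusted p = 0.0384) and for mCG10028.3 -0.91 ± 0.21 (adjusted p = 0.0358), both with groups that do not overlap. The calls for these 3 probes were lost without any 1 of 7 mice, mouse 5 being the exception. Of 20 alternatives, the call held in 9 for mCG117653.1, 6 for mCG15979.1 and 9 for mCG10028.3. All 3 calls were lost with no detection filter (adjusted p = 0.0982 to 0.109) and in the methods' t-test (0.0763 to 0.141). The call for mCG117653.1 was lost with scan day as a random block (0.0508), where each day holds 1 genotype, and with assay-normalized signal (0.0510). Those for mCG15979.1 and mCG10028.3 were lost in a fit to only the arrays compared (0.0980 and 0.0737) and at the 2-fold threshold. For mCG15979.1 median scaling (0.0628), the authors' ratios (0.0632) and all 32 arrays (0.0662) lost it too. The RSG effects of these 3 probes in Pparg fl/- LysCre iDCs were -0.34 ± 0.36, -0.08 ± 0.23 and -0.01 ± 0.21, none called (adjusted p = 0.841 to 0.993). In Pparg+/- LysCre iDCs limma called mCG10028.3 lower with RSG (-0.90 ± 0.21, adjusted p = 0.0166), a call that held in 13 of 20 alternatives. There mCG15979.1 was called lower, as given above, and mCG117653.1 was not called (adjusted p = 0.527). The difference in RSG effect between the genotypes was called for none of the 3 (limma, adjusted p = 0.279 to 0.965).

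On the array itself the members were spread over the 4 quadrants made by the median row and the median column, with 34, 30, 40 and 35 of them (21.6% to 28.8%, beside 24.9% to 25.0% of all probes).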

How the data were processed

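RNA was labeled and hybridized by the authors to Applied Biosystems mouse genome survey arrays, 1 array per culture. The deposited per-array files give, per the file headers, a background-corrected signal on a linear scale, its error, an S/N score, an assay-normalized signal and a flag, and the series table holds the authors' ratio values, which are the signals scaled by 1 factor for the array and 1 for the probe, to within 0.01 on the log2 scale for all but 0.0745% of values. The versions of the scanner software were not given in the sources used here. Control spots (4830) and 1 probe excluded by the rule, which is not reported here, were left out of the members.

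Members and lists were chosen with earlier results of these data known. Signals were quantile-normalized as log2 over all 32 arrays, and probes with S/N of at least 3 on 3 of 4 arrays of any group were tested (16620). The moderated test of limma 3.58.1 (R 4.3.3) was fitted to the 16 arrays of a cell type, with Benjamini-Hochberg adjustment over all probes tested. Tables and figures were made with Python 3.11.15, numpy 2.4.6, pandas 2.3.3 and matplotlib 3.10.9. Replicates were separate mice, with both treatments and cell types from each. Deviations from group means correlated between the arrays of a mouse (r = 0.0372 to 0.549 in iDCs and 0.00953 to 0.623 in macrophages), and the pairing comes from the labels, so a fit with the mouse as a replicate block was run as an alternative (for the RSG effect in Pparg+/- LysCre iDCs it called 13 members, 9.35%, beside 7.77% of all probes). Replicate arrays correlated at r = 0.943 to 0.981. Arrays have no read depth, and their number limits the precision. On simulated data with 200 probes changed by a log2 value of 1, the fits recovered from 27.5% (difference between genotypes) to 65% (RSG effect over both genotypes). The changed probes were drawn from all probes tested and the noise was independent between arrays. Recovery among the dim members, or with arrays of a mouse correlated, was not measured.

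Probes named in the text were the members with a symbol, up to 3 risen and 3 fallen with the largest change among those called with groups that do not overlap in each tested comparison, the 3 with the largest macrophage difference, the 2 with the highest vehicle level and the symbols just outside the rule. Alternatives changed the scaling, the detection filter, the fold threshold, the test, the arrays fitted and the blocks, and left out each mouse.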

Additional observations from a re-analysis of the deposited data

Results flagged for a closer look

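In 9 of 144 groups of 4 arrays checked, 1 array stood apart, with a gap to the nearest other that took more of the group's range than chance gives in about 1 of 20 groups. Mouse 2 stood apart in the number of members detected in RSG-treated Pparg+/- LysCre macrophages (55 members, gap 0.871 of the range), and for the members' median level in vehicle-treated Pparg fl/- LysCre macrophages mouse 6 (9.24, 0.853). For AK009268.1 in RSG-treated Pparg+/- LysCre iDCs it was mouse 4 (10.32, 0.839). Grap stood apart in 3 groups, each time on an array where its S/N was below 0: vehicle-treated Pparg fl/- LysCre macrophages (mouse 8, 6.20, 0.852), the same cells with RSG (mouse 7, 6.39, 0.842) and vehicle-treated Pparg+/- LysCre iDCs (mouse 1, 5.64, 0.902). For mCG10028.3 it was mouse 5 in vehicle-treated Pparg fl/- LysCre macrophages (10.62, 0.841) and mouse 7 in vehicle-treated Pparg fl/- LysCre iDCs (10.50, 0.835), and for mCG117653.1 mouse 5 in RSG-treated Pparg fl/- LysCre iDCs (12.86, 0.831).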

How the results depend on the processing

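The members are dim probes chosen at a threshold, so their number depends on how detection is defined. At an S/N of at least 2 or 5 it stayed near 139 (137 and 147), but with other probes, since 22 and 7 of these were among the 139. It was 50 (13 of them among the 139) when detection was read from the normalized level (at least 9 on the log2 scale) in place of S/N, with 30 probes passing the mirrored rule, and 262 to 350 without 1 mouse, which also loosens the rule because 7 arrays remain per treatment. The negative median level change in macrophages is fixed by the choice of members, and its values under other scalings or without 1 mouse say nothing of stability. Leaving out 1 mouse, the members called numbered 3 to 5 for the RSG effect in iDCs over both genotypes, 3 to 14 in Pparg+/- LysCre iDCs, 0 to 1 in Pparg fl/- LysCre iDCs, 0 to 14 for genotype in iDCs and 0 to 8 for genotype in macrophages. Over all probes the shares in these fits were 3.68% to 4.75%, 3.54% to 7.62%, 0.162% to 0.566%, 0.217% to 12.2% and 0% to 15.0%. With no detection filter, which tests 33012 probes, the counts were 2 over both genotypes, 0 in Pparg fl/- LysCre iDCs and 1 for genotype in iDCs (1.44%, 0% and 0.719% of members, beside 2.11%, 0.106% and 0.191% of all probes). The 2-fold threshold left 5 over both genotypes and 3 for genotype in iDCs (3.6% and 2.16%, beside 2.37% and 1.61%). Fits to only the arrays compared called 0 in Pparg fl/- LysCre iDCs and 2 for genotype in iDCs (0% and 1.44%, beside 0.0361% and 1.05%). The methods' t-test called 5 in Pparg+/- LysCre iDCs, 0 in Pparg fl/- LysCre iDCs and 0 for genotype in iDCs (3.6%, 0% and 0%, beside 5.88%, 0% and 0.168%). The mouse as a replicate block gave 12, 13, 1, 6 and 0 for these 5 comparisons in the order of the leave-one-out counts (8.63%, 9.35%, 0.719%, 4.32% and 0% of members, beside 5.82%, 7.77%, 1.22%, 3.69% and 2.05% of all probes). For the mean over genotypes and the difference between them, a fit to only the arrays compared is the fit reported. The cause of these moves was not tested, apart from the looser rule with 1 mouse fewer and the larger number of probes without a filter. No named call reversed under any alternative. Low signal over background limits many of the levels given for the members, though not those of probes bright in iDCs such as mCG145361.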
